A study of Mus musculus with 6 samples.

Results

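The mitochondrial genome of the mouse encodes 37 genes, and their transcripts were followed in megakaryocyte-erythroid progenitors, the common source of the red cell and platelet lineages in bone marrow. Members were all genes whose symbol in the GENCODE M21 annotation starts with mt-, which gave 13 mRNAs, 2 rRNAs and 22 tRNAs, 37 of the 55487 genes in the deposited count table. All 37 carried the same identifier version and length as in that annotation of GRCm38. The mice were C57BL/6 wild type at 8 weeks of age. RNA of the sorted progenitors was sequenced in bulk. Control mice gave 3 libraries and mice without food for 6 h gave the other 3, and values are listed below in the order of replicates 1 to 3. The labels name no sex, batch or pairing and do not say whether a library came from 1 mouse or a pool, so p-values measure only the spread between these libraries. The study asked what fasting does to the making of red blood cells.

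Mitochondrial DNA is a small circle that is transcribed from both strands into long precursors. Most of its tRNAs lie between the mRNAs and rRNAs, and their excision releases the other RNAs. Most of the mRNAs are then polyadenylated. The 13 proteins are core subunits of respiratory complexes I, III, IV and V, and are made on mitochondrial ribosomes from the 2 rRNAs. Erythroid cells depend on mitochondria for steps of haem synthesis, and lose these organelles as they mature into red blood cells.

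The libraries held between 12797144 and 30246110 gene counts, and every fasted library was shallower than every control library. Odorant and vomeronasal receptor genes, which are silent in blood cells and served as a measure of background, received 8.98 to 15.97 counts per kilobase. Extended over all exons, that rate equals 3.90% to 8.60% of all counts in the control group and 11.5% to 14.6% in the fasted group. All 12 markers of megakaryocyte-erythroid progenitors were detected and 11 of them lay at or above 5 times the background. Their median log2 fold change in the comparison below was -0.74, with 2 of 12 called lower (3.82% of all genes). The median was -0.20 over 11 in the restricted fit described below, with 0 called. The count of markers called lower was 8 without control library 3 (10.3% of all genes) and 3 without fasted library 2 (4.27%). It was 0 when any other library was left out. Markers of T and NK lymphocytes, none of the 6 at 5 times the background, summed to 16.6 to 19.5 CPM (counts relative to the scaled library total) in the control group and 27.5 to 34.6 CPM in the fasted group. The background receptor genes also rose, from 2102 to 3739 CPM in the control group to 4147 to 4877 CPM in the fasted group. Summed markers of B lymphocytes, of stem and multipotent progenitors and of late erythroid cells overlapped between the groups. Granulocyte and monocyte markers were also present. The 12 of them summed to between 4484 and 18003 CPM in the control group and between 1253 and 3362 CPM in the fasted group. The part of these cells in the values below was not tested. In bulk RNA, fewer cells of a type and less RNA per cell cannot be told apart.

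Neighbouring mitochondrial genes lie so close that some share bases, and 7 of the mRNAs have near-identical copies in the nuclear genome. Both features bear on where a read can be counted, so the sequences are shown first. mt-Atp8 and mt-Atp6, which encode subunits of the ATP synthase, overlap by 43 bases (chrM:7927-7969). mt-Nd4l and mt-Nd4, which encode subunits of complex I, overlap by 7 bases (chrM:10167-10173). The ends of the upstream genes are printed 5′ to 3′ with the shared bases in capitals, from the GENCODE M21 transcripts of GRCm38, plus strand:
mt-Atp8 (chrM:7910-7969): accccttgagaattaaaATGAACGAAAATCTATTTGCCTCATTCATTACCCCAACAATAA
mt-Nd4l (chrM:10144-10173): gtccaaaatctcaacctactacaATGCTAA

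The nuclear copies form a block of 7 unprocessed pseudogenes on the minus strand of chromosome 1 (chr1:24611535-24616197, 4663 bases). They were found by aligning the mitochondrial transcripts to all other annotated transcripts, so copies without a gene model were not searched. Gm28661, Gm10925, Gm28437 and Gm10222 matched mt-Co2, mt-Atp6, mt-Co3 and mt-Nd4l at 100% identity over 99.56%, 99.56%, 99.87% and 98.99% of each gene. Gm28438 matched 99.14% of mt-Nd3 with 1 mismatch, Gm28439 matched the 5′ 63.57% of mt-Nd4 at 100% identity, and Gm29216 matched the 3′ 31.26% of mt-Co1 with 1 mismatch. The only bases that tell these pairs apart within the matched stretches are T3C in mt-Nd3 and A1066T in mt-Co1, with the mitochondrial base first, the copy's base last, and positions counted from 1 at the gene's 5′ end. The stretches around them are shown with the differing base in capitals, each on the sense strand of its gene:
mt-Nd3 (chrM:9459-9476, plus strand): atTaacctgtacactgtt
Gm28438 (chr1:24613102-24613119, minus strand): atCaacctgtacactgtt
mt-Co1 (chrM:6390-6408, plus strand): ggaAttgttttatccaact
Gm29216 (chr1:24616170-24616188, minus strand): ggaTttgttttatccaact

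Counts per length differed widely between the mitochondrial mRNAs, 12 of which lie on the same strand. Among the 6 mRNAs with no near-identical nuclear match of 100 bases or more the highest mean level was 42.1 times the lowest. As means over the 6 libraries, mt-Cytb, the complex III subunit, was at 5202 CPM per kilobase. mt-Atp8, the short ATP synthase subunit, was at 124 CPM per kilobase. mt-Atp8 shares 43 bases with mt-Atp6 and lies in the copied part of the genome, where copies without a gene model were not searched. The next lowest of the 6, mt-Nd6, was at 324 CPM per kilobase. The order of the counted levels from high to low, with the rRNAs and without mt-Tp, was mt-Cytb, mt-Nd1, mt-Co1, mt-Rnr2, mt-Nd4, mt-Nd2, mt-Nd5, mt-Rnr1, mt-Atp6, mt-Nd6, mt-Atp8, mt-Co3, mt-Co2, mt-Nd4l and mt-Nd3. Of the 14 neighbouring pairs in that order, 7 held in all 6 libraries. The other pairs changed places in at least 1 library, and mt-Nd5 exceeded mt-Rnr1 in only 2 of 6. The place of a gene with a nuclear copy is that of its counts alone, as described below. RNA was taken with oligo(dT) beads, so the order is that of captured RNA. It does not give the amounts of rRNAs and mRNAs in the cells. On the scale of CPM per kilobase, mt-Cytb averaged 5708 ± 815 in the control group and 4695 ± 2276 in the fasted group, and mt-Nd1 averaged 4162 ± 131 and 4355 ± 1872 (SD, n = 3 each).

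The 5 mRNAs covered over more than 90% of their length by a near-identical copy, mt-Co2, mt-Atp6, mt-Co3, mt-Nd3 and mt-Nd4l, had mean levels from 21.9 to 362 CPM per kilobase. The 6 mRNAs with no near-identical match of 100 bases or more ranged from 124 to 5202 CPM per kilobase, and the lowest of these, mt-Atp8, lies between mt-Co2 and mt-Atp6 in the copied part of the genome. mt-Co1 and mt-Nd4, covered in part, were at 1989 and 752 CPM per kilobase of the whole gene. When their counts were divided by the bases outside the copy alone, 1062 and 502 bases, the values became 2894 and 2065 CPM per kilobase. How reads that match both places were counted is not given in the sources used here, so levels of the covered genes cannot be compared with those of the others.

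**Figure D1:**
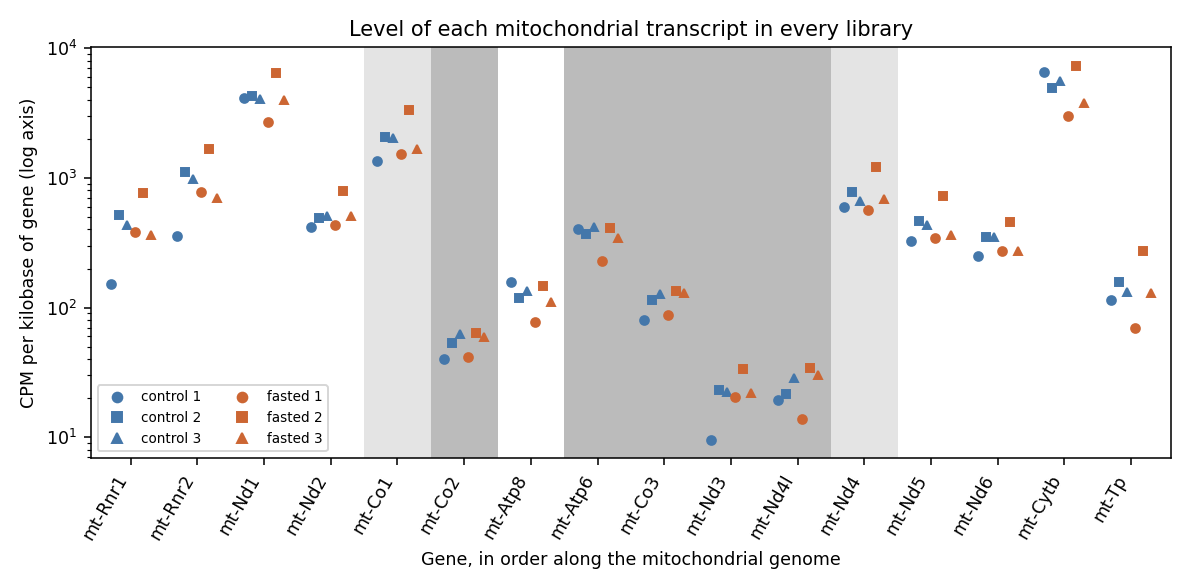
Level of the 13 mRNAs, the 2 rRNAs and mt-Tp in each library, in CPM per kilobase on a log axis, with genes in their order along the mitochondrial genome. Dark grey marks genes covered over more than 90% by a near-identical nuclear copy and light grey those covered in part; the 4 lowest means, from 21.9 (mt-Nd3) to 112 CPM per kilobase (mt-Co3), lie in the dark bands.

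The ratio of a mitochondrial gene's counts to those of its chromosome 1 copy was near 1 for mt-Atp6, mt-Co3 and, outside fasted library 2, mt-Nd4l. It was higher for the other pairs. mt-Atp6 had 6307, 5664 and 5935 counts in the control group and 2415, 5326 and 4481 in the fasted group. Its copy Gm10925 had 6314, 6030 and 6418 counts in the control group and 2644, 5033 and 5495 in the fasted group. The ratio of gene to copy therefore lay between 0.815 and 1.06 in all 6 libraries. mt-Co3, which encodes a core subunit of complex IV, had 1420, 2001 and 2094 counts in the control group and 1072, 2002 and 1937 in the fasted group. Gm28437 had 1181, 1900 and 1890 and then 1009, 1639 and 1733, a ratio of 1.05 to 1.22.

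mt-Nd4l had 1.07 to 1.51 times the counts of Gm10222, with the highest ratio in fasted library 2. Other pairs differed more, and mt-Co2 had 1.49 to 2.19 times the counts of Gm28661. mt-Nd3, the pair with a mismatch at base 3, had 76, 180 and 162 counts in the control group and 111, 225 and 147 in the fasted group, against 20, 44 and 62 and then 28, 45 and 72 for Gm28438. That ratio was 2.04 to 5.00. For the genes covered only in part, mt-Nd4 had 39.2 to 70.5 times the counts of Gm28439 and mt-Co1 had 43.9 to 96.4 times the counts of Gm29216.

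Copies that differ more from the mitochondrial genome had few counts. The other 10 annotated pseudogene matches, at 90.7% to 97.6% identity, had at most 159 counts per kilobase in any library, against 58.0 to 9466 counts per kilobase for the 7 near-identical copies. Gm13340, a copy of mt-Co1 on chromosome 2 at 97.6% identity, had the most, with 145 to 245 counts. Gm13341 and Gm13339, its neighbours, averaged 33.3 and 17.8 counts. A separate list of 11 genes, set as nuclear copies and not identical to these matches, was used for fold changes. It also held Gm29215, a chromosome Y lincRNA that did not align to the mitochondrial genes. Of the 10 genes in this list that were tested for fasted against control libraries, as described below, none passed. Their log2 fold changes ran from -0.24 (Gm10925) to 0.68 (Gm13339), with edgeR adjusted p from 0.409 to 0.973, and the median was 0.21. With library totals alone the median came to 0.67 and with RLE factors to 0.02. It was 0.60 over the 8 genes of this list in the fit restricted to genes well above background.

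**Figure D2:**
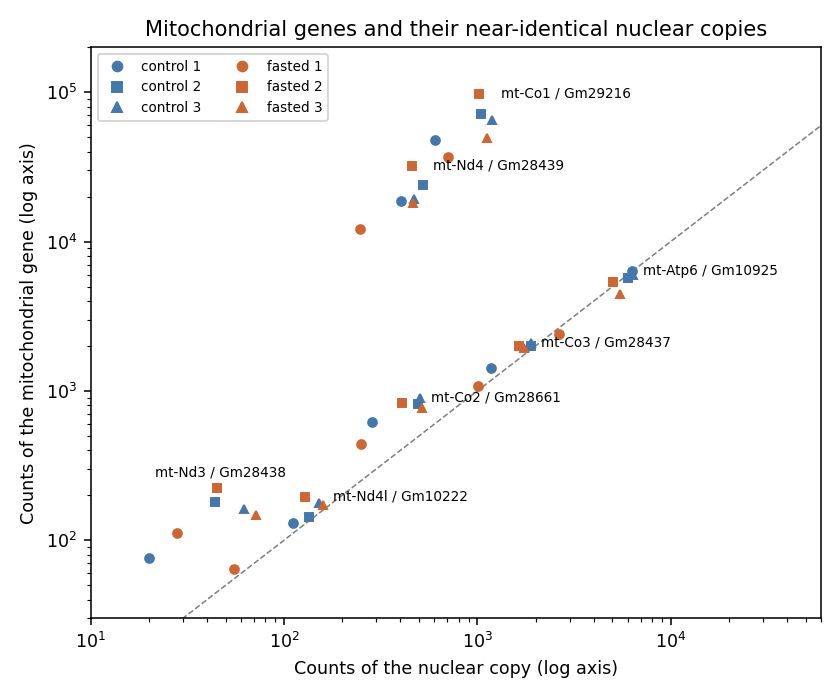
Counts of 7 mitochondrial genes (y axis) against counts of their near-identical nuclear copies (x axis), 1 point per library, both axes logarithmic, with equality as a dashed line. The mt-Atp6 and mt-Co3 pairs lie along the line, with ratios of 0.815 to 1.06 and 1.05 to 1.22, while mt-Co1 and mt-Nd4 lie far above it.

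Nearly all mitochondrial tRNAs went uncounted. Of the 22 tRNA genes, 59 to 75 bases long, 19 had 0 counts in all 6 libraries. A count of 0 allows up to 3 counts, equal to 0.0992 CPM before scaling in control library 1, the deepest, and 0.234 CPM in fasted library 1, the shallowest (counting error only). The background rate would give each tRNA gene 0.805 to 1.02 counts per library. All 14 tRNAs of the plus strand and 5 of the 8 of the minus strand were at 0. mt-Tn and mt-Tc, the asparagine and cysteine tRNAs, had 0 to 3 and 0 to 2 counts.

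mt-Tp, the proline tRNA on the minus strand (chrM:15356-15422), was the one tRNA with substantial counts. It had 174, 237 and 185 counts in the control group and 72, 350 and 167 in the fasted group, or 216 times the background on average. mt-Tt, the threonine tRNA on the plus strand (chrM:15289-15355), adjoins it with 0 bases between and was at 0 in every library. Both are shown 5′ to 3′ in lower case, with no base marked, as a counted and an uncounted tRNA side by side:
mt-Tp: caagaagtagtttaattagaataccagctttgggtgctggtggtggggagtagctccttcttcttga
mt-Tt: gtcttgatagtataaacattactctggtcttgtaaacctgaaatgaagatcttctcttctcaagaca

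The 3 tRNAs with counts each border a stretch without an annotated gene. mt-Tn and mt-Tc flank a gap of 32 bases, and mt-Tp borders the control region, the non-coding part of the genome. All other gaps between neighbouring members are at most 5 bases. mt-Tf, the phenylalanine tRNA on the other side of the control region, had 0 counts. Whether counting used strand, and what was done with reads that touch more than 1 gene, is not stated, and the part of these settings was not tested. The amount of the tRNAs themselves was not measured by this assay, which takes polyadenylated RNA with oligo(dT) beads.

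For fasted against control, the 13 mRNAs, 2 rRNAs and mt-Tp passed the filter on low counts. None of the 13 mRNAs passed edgeR's quasi-likelihood test at an adjusted p under 0.05, where 4.97% of the 36508 genes tested were called. Their smallest adjusted p was 0.344 and none had an unadjusted p under 0.05. DESeq2 and limma-voom also called 0 of 13. The median log2 fold change was 0.13 over the mRNAs, 10 above 0 and 3 below, against 0.32 over all genes tested, and it turned to -0.08 with DESeq2 and to -0.05 with RLE factors, its default scaling. CPM values of the groups overlapped for all 13 mRNAs, where 34.9% of tested genes had groups that did not overlap. Overlap can differ without scaling factors. As a percentage of all counts, mt-Nd6 ran from 0.0097% to 0.0168% in the control group and from 0.0172% to 0.0247% in the fasted group. The 13 mRNAs summed still overlapped on that scale, on which the share of all genes without overlap was not counted.

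Single libraries set the spread. Fasted library 2 had the highest CPM for 11 of the 13 mRNAs and for both rRNAs, and fasted library 1 or control library 1 had the lowest CPM for all 13. Without fasted library 2 the median of the mRNAs turned to -0.26, and mt-Cytb alone was called, as lower (log2 fold change -0.82, edgeR adjusted p 0.0432, where 4.65% of all genes were called).

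The sign of these values rests on how libraries are scaled to each other. The factors used here (TMM, which assumes that most genes do not change) were computed over all tested genes, of which only 10637 lay at or above 5 times the background. Those 10637 genes were chosen by mean unscaled counts, in which the deeper control libraries weigh more, and their median was -0.50. When only they were scaled and tested, their median was 0.02 and that of the mitochondrial mRNAs was 0.61, with all 13 above 0. This restricted fit called no gene, mitochondrial or other. Of the 13 mRNAs 5 had an unadjusted p under 0.05 in it (mt-Nd2, mt-Nd3, mt-Nd4, mt-Nd5 and mt-Nd6), against 19.8% of all genes in that fit, and their smallest edgeR adjusted p was 0.151. Its median was 0.34 without fasted library 2 and between 0.45 and 0.80 without any of the others. With library totals alone, mt-Nd2 was called as higher (log2 fold change 0.74, edgeR adjusted p 0.0314), where 11.8% of all genes were called as higher. With factors from the 10637 genes it was called again (0.77, edgeR adjusted p 0.0334), where 13.7% were.

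Complex I, the entry point of electrons from NADH, takes 7 of its subunits from the mitochondrial genome. mt-Nd1 (chrM:2751-3707) was at 3969, 4115 and 3866 CPM in the control group and at 2598, 6119 and 3785 CPM in the fasted group. On the log2 scale the difference was 0.07 (SE 0.27), edgeR adjusted p 0.880. The control libraries lay within a narrow range in CPM, while the fasted ones lay on both sides of it.

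mt-Nd2 (chrM:3914-4951) was at 431, 513 and 527 CPM in the control group and at 452, 829 and 527 CPM in the fasted group. On the log2 scale the difference was 0.30 (SE 0.24), edgeR adjusted p 0.411, and 0.77 (SE 0.22), edgeR adjusted p 0.151, in the restricted fit. In CPM the high fasted mean came from library 2, since library 3 equalled the highest control library. The share of the mitochondrial mRNA counts, which needs no scaling, was higher in every fasted library (3.44% to 4.23%) than in every control library (2.70% to 3.24%).

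mt-Nd4 (chrM:10167-11544) and mt-Nd5 (chrM:11742-13565) encode proton-pumping subunits. mt-Nd4 was at 826, 1063 and 921 CPM in the control group and at 777, 1684 and 949 CPM in the fasted group, a log2 fold change of 0.28 (SE 0.26), edgeR adjusted p 0.476. mt-Nd5 was at 595, 850.0 and 784 CPM and then at 627, 1317 and 666 CPM, with 0.23 (SE 0.27), edgeR adjusted p 0.574. On this scale, fasted library 2 was the only fasted library above all control libraries for both genes. With library totals alone their log2 fold changes were 0.72 (SE 0.23), edgeR adjusted p 0.0620, and 0.66 (SE 0.28), edgeR adjusted p 0.128.

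mt-Nd3 (chrM:9459-9806) and mt-Nd4l (chrM:9877-10173), the lowest mRNAs, lie inside the copied block. mt-Nd3 was at 3.33, 8.04 and 7.73 CPM in the control group and at 7.14, 11.8 and 7.69 CPM in the fasted group (log2 fold change 0.48, SE 0.34, edgeR adjusted p 0.344). mt-Nd4l was at 5.70, 6.43 and 8.44 CPM and then at 4.11, 10.2 and 8.95 CPM (0.18, SE 0.33, edgeR adjusted p 0.724). Control library 1 was low in both, and fasted library 1 had the lowest CPM of all for mt-Nd4l.

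mt-Nd6 (chrM:13552-14070) is the only mRNA on the minus strand and overlaps the end of mt-Nd5 by 14 bases on the opposite strand. It was at 128, 181 and 180.2 CPM in the control group and at 142, 235 and 143 CPM in the fasted group, a log2 fold change of 0.09 (SE 0.25), edgeR adjusted p 0.829. In CPM the fasted libraries other than 2 lay between control library 1 and the other controls. As a percentage of all counts, every fasted library lay above every control library. The mt-Nd6 share of the mitochondrial mRNA counts needs no scaling between libraries. It was 0.804%, 1.13% and 1.11% in the control group and 1.33%, 0.975% and 1.07% in the fasted group. The means differed by 0.11 percentage points (p = 0.6, exact permutation test, two-sided), and 6 libraries in 2 groups allow no p below 0.1. The difference was 0.0014 without control library 1 and 0.0052 without fasted library 1, and between 0.14 and 0.18 without any 1 of the others. The log2 ratio of mt-Nd6 to its neighbour mt-Cytb on the other strand was -5.33 ± 0.48 in the control group and -4.89 ± 0.27 in the fasted group (SD, n = 3 each; p = 0.2, exact permutation test, two-sided). That difference of 0.44 was 0.17 without control library 1. The strand setting of the counting is not given, so the mt-Nd6 values cannot be assigned to RNA of the minus strand alone. The part of plus-strand RNA in them was not tested. They are also values of RNA captured with oligo(dT) beads.

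mt-Cytb (chrM:14145-15288), the only mitochondrially encoded subunit of complex III, was at 7524, 5675 and 6392 CPM in the control group and at 3450.3, 8335 and 4328 CPM in the fasted group. On the log2 scale this gave -0.28 (SE 0.28), edgeR adjusted p 0.5004, and 0.21 (SE 0.26), edgeR adjusted p 0.684, in the restricted fit. Fasted libraries 1 and 3 lay below every control library in CPM, and fasted library 2 above them.

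Complex IV, cytochrome c oxidase, has its catalytic core encoded here. mt-Co1 (chrM:5328-6872) was at 2098, 3172 and 3113 CPM in the control group and at 2366, 5119 and 2574 CPM in the fasted group (log2 fold change 0.26, SE 0.28, edgeR adjusted p 0.529). mt-Co2 (chrM:7013-7696) was at 27.3, 36.7 and 43.1 CPM and then at 28.2, 43.4 and 40.2 CPM (0.06, SE 0.25, edgeR adjusted p 0.875). mt-Co3 (chrM:8607-9390) was at 62.3, 89.4 and 99.9 CPM and then at 68.9, 105 and 101 CPM (0.13, SE 0.24, edgeR adjusted p 0.731). Replicate 1 was the lowest library of its group for all 3 genes.

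The ATP synthase genes mt-Atp8 (chrM:7766-7969) and mt-Atp6 (chrM:7927-8607) were below 0 on the log2 scale, as was mt-Cytb. mt-Atp8 was at 31.9, 24.2 and 27.1 CPM in the control group and at 15.9, 29.8 and 22.4 CPM in the fasted group, a log2 fold change of -0.29 (SE 0.26), edgeR adjusted p 0.456. mt-Atp6 was at 277, 253 and 283 CPM and then at 155, 279 and 235 CPM, with -0.28 (SE 0.24), edgeR adjusted p 0.423. mt-Atp8 and mt-Atp6 were the mRNAs for which fasted library 2 did not have the highest CPM. In the restricted fit both had a log2 fold change of 0.22 or 0.21, so their direction depended on the scaling. Adding the counts of the chromosome 1 copies to their mitochondrial genes, an alternative chosen after seeing the counts, left the median of the mRNAs at 0.11 and mt-Atp6 at -0.26.

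**Figure D3:**
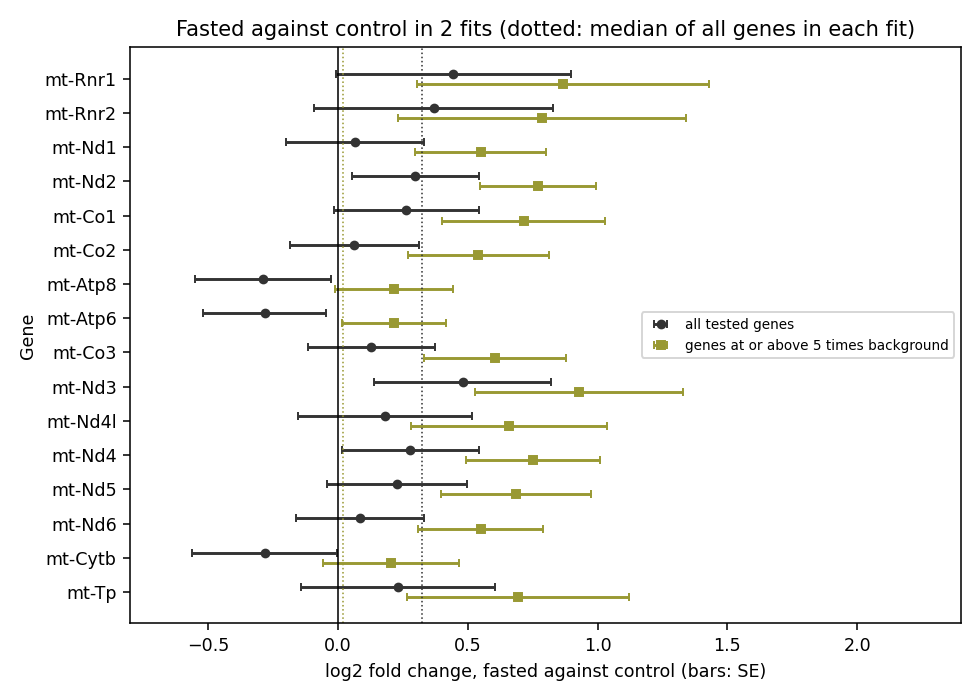
Log2 fold change of fasted against control libraries with its SE for the 16 members tested, in the fit of all 36508 genes (circles) and in the restricted fit of 10637 genes (squares), with dotted lines at the median of all genes in each fit. All 13 mRNAs lie above 0 in the second fit and 10 of 13 in the first, and no member was called in either.

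The 2 rRNAs and mt-Tp varied most between libraries. mt-Rnr1 (chrM:70-1024), the small rRNA, was at 145, 493 and 417 CPM in the control group and at 364, 725 and 345 CPM in the fasted group, a log2 fold change of 0.44 (SE 0.45), edgeR adjusted p 0.523. mt-Rnr2 (chrM:1094-2675), the large rRNA, was at 562, 1763 and 1547 CPM and then at 1239.5, 2649.6 and 1108 CPM, with 0.37 (SE 0.46), edgeR adjusted p 0.607. Control library 1 was the lowest of the 6 for both rRNAs, and without it mt-Rnr2 came to -0.00045 on the log2 scale.

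Relative to each other the rRNAs were steady. The log2 ratio of mt-Rnr1 to mt-Rnr2 in counts per kilobase was -1.17 ± 0.06 in the control group and -1.04 ± 0.09 in the fasted group (SD, n = 3 each; p = 0.2, exact permutation test, two-sided). Against the mRNAs, the rRNAs gave 4.42, 14.1 and 12.1 counts per 100 mRNA counts in the control group and 15.0, 13.99 and 10.9 in the fasted group. Control library 1 thus stood apart from the other 5. These ratios are of RNA captured with oligo(dT) beads, and the capture of the rRNAs was not measured. mt-Tp was at 7.63, 10.6 and 8.82 CPM in the control group and at 4.63, 18.3 and 8.74 CPM in the fasted group (log2 fold change 0.23, SE 0.37, edgeR adjusted p 0.686).

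The make-up of the mitochondrial mRNA counts, which no scaling between libraries affects, was dominated by a few genes. How reads shared with a nuclear copy were counted is not given. The shares are therefore of counts and do not rank the covered genes against the others as RNA. mt-Cytb held 47.1%, 35.5% and 39.3% of the mitochondrial mRNA counts in the control group and 32.3%, 34.6% and 32.3% in the fasted group. All fasted shares lay below all control shares, with a mean difference of -7.59 percentage points. mt-Nd4 held 5.17%, 6.65% and 5.66% in the control group and 7.26%, 6.98% and 7.09% in the fasted group, and mt-Nd2 held 2.70%, 3.21% and 3.24% and then 4.23%, 3.44% and 3.94%. For both, the fasted shares all lay above the control shares.

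For the other 10 mRNAs the shares of the groups overlapped. mt-Nd1 held 24.8% ± 0.98 in the control group and 26.0% ± 2.06 in the fasted group (SD, n = 3 each), and mt-Co1 held 17.4% ± 3.69 and 20.9% ± 1.49 (SD, n = 3 each). The 3 of 13 that did not overlap compare with 14.1% of all tested genes when their counts were likewise divided by the mitochondrial mRNA total. Shares of 1 pool move against each other, so the lower mt-Cytb share and the higher mt-Nd4 and mt-Nd2 shares are not separate measurements. The largest mt-Cytb share and the lowest shares of mt-Co1, mt-Nd4 and mt-Nd2 all came from control library 1.

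**Figure D4:**
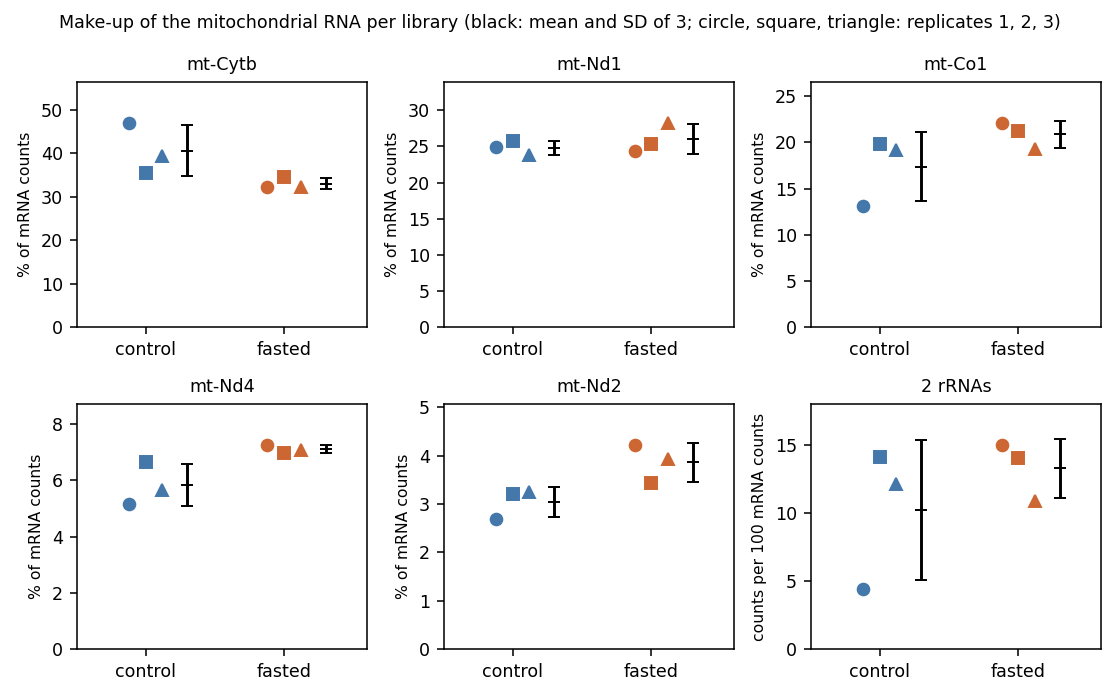
Share of the mitochondrial mRNA counts held by 5 mRNAs, in percent, and counts of the 2 rRNAs per 100 mRNA counts, for each library, with the mean and SD of each group in black. The fasted mt-Cytb shares (32.3% to 34.6%) lie below all control shares, and control library 1 has the lowest rRNA value, at 4.42.

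Together the 37 genes took 1.26%, 1.55% and 1.70% of all gene counts in the control group and 1.495%, 2.89% and 1.91% in the fasted group. The 95% Wilson intervals were narrow, from 1.25% to 1.26% in control library 1 and from 2.88% to 2.89% in fasted library 2. They cover counting error only, since amplified reads without molecular identifiers are not independent molecules. The means were 1.504% ± 0.23 in the control group and 2.10% ± 0.71 in the fasted group (SD, n = 3 each), and the groups overlapped. The difference was 0.59 percentage points with all libraries, 0.20 without fasted library 2 and 0.89 without fasted library 1.

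The respiratory chain is built from both genomes, and 77 genes of its nuclear-encoded subunits were set beside the mitochondrial mRNAs. The nuclear subunits took 1.78%, 2.10% and 1.81% of all counts in the control group and 1.62%, 1.79% and 1.80% in the fasted group. Per count in the nuclear subunits there were 0.678, 0.646 and 0.840 counts in the 13 mitochondrial mRNAs in the control group and 0.800, 1.42 and 0.957 in the fasted group. The groups overlapped through fasted library 1, which lay below control library 3. Of 76 nuclear subunits tested, 10 were lower in the fasted group and 0 higher (3.82% and 1.15% of all genes), with a median log2 fold change of -0.61. The smallest p-values belonged to Ndufa12, Ndufb7 and Ndufb10 of complex I, at -0.99 (SE 0.23), -0.94 (SE 0.23) and -0.88 (SE 0.22), edgeR adjusted p 0.0333 to 0.0389. The restricted fit had a median of -0.11 and called none, and library totals called 2 as lower (0.797% of all genes), as did TMM over the restricted genes (0.698%). Leaving out control library 1 gave 11 calls, control library 3 gave 42 and fasted library 2 gave 22, and there were 0 when any 1 of the other 3 libraries was left out. Over all genes, 2.24%, 0.398% and 10.3% were called as lower without control library 1, 2 or 3, and 0.242%, 4.27% and 0.0183% without fasted library 1, 2 or 3.

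**Figure D5:**
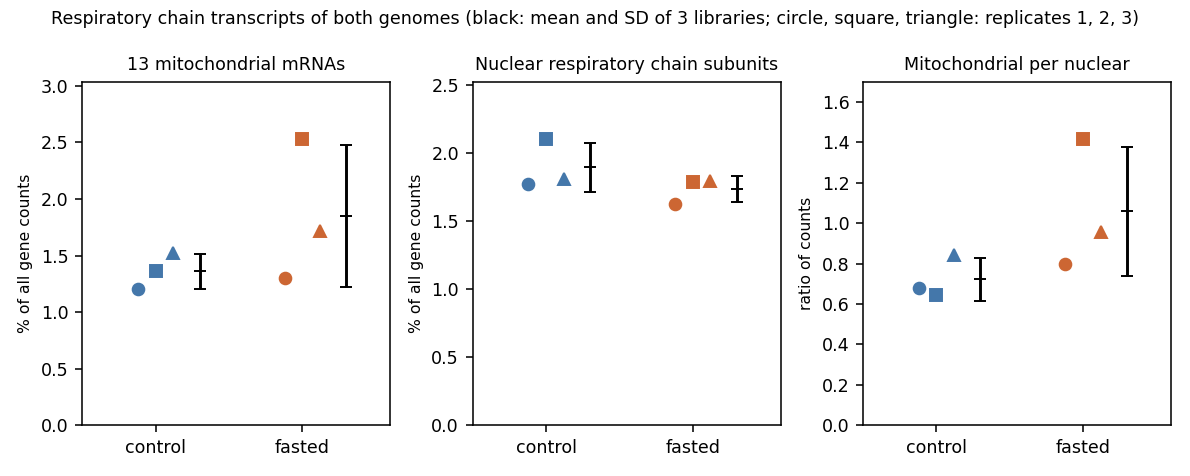
Share of all gene counts in the 13 mitochondrial mRNAs and in the nuclear-encoded respiratory chain subunits, in percent, and the ratio of their counts, for each library, with the mean and SD of each group in black. The ratio runs from 0.646 to 0.840 in the control group and from 0.800 to 1.42 in the fasted group, with fasted library 2 at the top.

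Genes that transcribe and copy mitochondrial DNA formed a list of 20, all tested. Only Top1mt, a mitochondrial topoisomerase, passed, which as 1 of 20 is near the 3.82% of all genes called as lower. It was lower in the fasted group (33.8 CPM ± 7.93 in the control group and 16.02 CPM ± 0.93 in fasted as mean and SD, n = 3 each). The change was -1.08 on the log2 scale (SE 0.25), edgeR adjusted p 0.0333. Polrmt, the mitochondrial RNA polymerase, had -0.23 (SE 0.26). Its transcription factors Tfam and Tfb2m had -0.51 (SE 0.23) and -0.52 (SE 0.25), and the elongation factor Tefm had -0.79 (SE 0.29). Twnk, the replicative helicase, and Polg, the DNA polymerase, had -0.50 (SE 0.29) and -0.26 (SE 0.24). The edgeR adjusted p of these 6 lay between 0.0909 and 0.549, and the median of the list was -0.66.

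In the restricted fit 15 of the 20 genes were tested, none was called, and their median was -0.0027. Top1mt had -0.55 there (SE 0.19, edgeR adjusted p 0.178), Polrmt 0.33 (SE 0.23) and Tfam 0.03 (SE 0.14). Library totals alone also called none of the 20. Without control library 3, when 10.3% of all genes were lower, the count was 10. It was 2 without fasted library 2 (4.27% of all genes) and 1 without control library 1 (2.24%). Leaving out control library 2 or either of fasted libraries 1 and 3 gave 0.

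Genes that cut, modify, stabilise or degrade mitochondrial RNA numbered 33, of which 32 were tested and 3 were lower in the fasted group, against 3.82% of all genes. These were Ptcd2, Trmt10c and Mrm3, with log2 fold changes of -0.87 (SE 0.24), -0.88 (SE 0.25) and -0.96 (SE 0.28) and edgeR adjusted p from 0.0424 to 0.0483. Trmt10c and Hsd17b10 are parts of the enzyme that cuts the 5′ ends of the tRNAs, and Mrm3 modifies the large rRNA. Hsd17b10 had -0.78 (SE 0.23), edgeR adjusted p 0.0537. Elac2, which cuts the 3′ ends of the tRNAs, had -0.53 (SE 0.24).

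Lrpprc, which stabilises mitochondrial mRNAs, had -0.64 (SE 0.25), and its partner Slirp averaged 2.00 counts and was not tested. Mtpap, the poly(A) polymerase, had -0.76 (SE 0.23). Pnpt1 and Supv3l1, the exonuclease and helicase of the degradosome, had -0.79 (SE 0.26) and -0.21 (SE 0.24). The edgeR adjusted p of Elac2, Lrpprc, Mtpap, Pnpt1 and Supv3l1 lay between 0.0559 and 0.557. The list had a median of -0.56 with all genes fitted. Its median was -0.04 in the restricted fit, which called none of 31. Library totals alone called none of the 32 either. The count was 19 without control library 3 (10.3% of all genes), 4 without fasted library 2 (4.27%) and 0 without any 1 of the other 4 libraries.

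Of the 10 regulators of mitochondrial biogenesis 1 was called, as was 1 of 17 mitochondrial tRNA synthetases, against 3.82% of all genes called as lower. The regulator was Gabpb1, at -0.84 (SE 0.24, edgeR adjusted p 0.0472), and it was not called in the restricted fit (-0.31, edgeR adjusted p 0.298). Ppargc1a, a coactivator of mitochondrial gene programmes, lay below 5 times the background and had 0.56 (SE 0.29, edgeR adjusted p 0.202), with 8.32 CPM ± 2.36 in the control group and 12.2 CPM ± 0.95 in the fasted group (SD, n = 3 each). With TMM over the restricted genes it was called as higher (1.03, SE 0.33, edgeR adjusted p 0.0474), where 13.7% of all genes were, and with library totals alone its edgeR adjusted p was 0.0503 (log2 fold change 1.02). The 1256 background receptor genes tested had a median log2 fold change of 0.61 in the fit of all genes. The part of background in the Ppargc1a values was not tested. Nrf1, a transcription factor of nuclear genes for mitochondrial proteins, had -0.59 (SE 0.23, edgeR adjusted p 0.103). The synthetase was Rars2, at -0.94 (SE 0.25, edgeR adjusted p 0.0408), and at -0.40 (SE 0.17, edgeR adjusted p 0.240) in the restricted fit, which called none of them. Both lists had 0 calls when control library 1 or 2 or fasted library 1 or 3 was left out. Without control library 3 they had 5 and 6 calls, against 10.3% of all genes.

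The proteins of the mitochondrial ribosome, which translates the 13 mRNAs, gave the most calls of these lists with all libraries and TMM factors. This order did not hold without control library 1 (6 against 11 for the nuclear respiratory subunits) or with either of the latter scalings (0 against 2). Of 78 genes 77 were tested, and 23 were lower and 0 higher in the fasted group (3.82% and 1.15% of all genes), with a median log2 fold change of -0.69. The smallest p-values belonged to Mrpl50, Mrpl36 and Mrps34, at -1.11 (SE 0.27), -0.93 (SE 0.24) and -1.02 (SE 0.26), edgeR adjusted p 0.0366 to 0.0385. In the restricted fit their median was -0.17, 10 of 77 lay above 0 and none was called, and library totals alone called none. The count rested on single libraries. Leaving out control library 1 gave 6 calls (2.24% of all genes), control library 3 gave 59 (10.3%) and fasted library 2 gave 27 (4.27%), and leaving out any of the other 3 gave 0. The summed granulocyte and monocyte markers were lower in every fasted library than in every control library, and 2 of the 12 progenitor markers were called lower. The part of either in the counts of these nuclear lists was not tested.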

How the data were processed

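The authors deposited raw counts per gene for 6 libraries with the exonic length of each gene. HISAT2 2.2.1, featureCounts 2.0.1 and GRCm38 are named in the submitters' processing notes. The annotation, the strand setting and the treatment of reads that match several places or genes are not given in the sources used here. Per the labels' protocols, RNA was taken with oligo(dT) beads and primed with random hexamers, and the extraction text describes ground tissue, not sorted cells. The table had 0 rows without a gene and 0 unmapped sample columns. Of its 55487 identifiers 54435 matched GENCODE M21 with their version, all with the same merged exon length. Members, lists and tests were chosen with earlier results of these data known.

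Counts were filtered with filterByExpr (36508 genes), scaled by TMM and fitted in edgeR 4.0.16 (R 4.3.3, glmQLFit, robust, group as the only term), with Benjamini-Hochberg adjustment over all genes tested and calls at an adjusted p under 0.05. CPM are after TMM scaling. The SE is the log2 fold change divided by the square root of F. Background was the summed counts of 1437 receptor genes over their summed length. A gene was at or above 5 times the background by its mean unscaled count over all 6 libraries, in which the deeper control libraries weigh more. Nuclear copies were found with blastn 2.17.0 (at least 90% identity over 100 bases), and near-identical means at least 99%. All mRNAs and rRNAs were named, tRNAs with a mean of at least 50 counts, nuclear copies in the list with a mean of at least 10 counts, 16 fixed genes of the lists, and called genes of a list, or the 3 with the smallest p where more than 5 passed. mt-Tn, mt-Tc, mt-Tt and mt-Tf were named after their values were seen. Alternatives used DESeq2 1.42.0, limma 3.58.1, other scalings and filters, the replicate number as a block, and each library left out. In simulated counts for this comparison with 200 genes changed 4-fold, 181 of 200 (90.5%) were called among 36806 genes tested, all with the right sign, with 5 false calls. The simulated dispersion was fixed at 0.1, changed genes had a mean of at least 5 CPM, and no shifts between libraries or in background were added. The recovery therefore does not apply to smaller changes or to the spread between the real libraries.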

Additional observations from a re-analysis of the deposited data

How the results depend on the processing

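The count of genes called over the whole table was 1813. It was 5883 with DESeq2, 2973 with RLE factors, 4587 with library totals alone, 5245 with TMM taken over the 10637 genes of the restricted fit, 0 in the restricted fit, 2849 with no filter, 558 without robust dispersion and 5723 at an adjusted p under 0.1. Leaving out 1 library gave 7 (without fasted library 3) to 5379 (without control library 3), and 105 and 190 without fasted library 1 and control library 2. The replicate block gave 146 genes. Same-numbered libraries correlated at -0.17, 0.14 and -0.31 in their deviations from the group means, and libraries with different numbers at -0.14 to 0.31. With 3 libraries per group these values cannot settle whether the numbers are a pairing, and the labels name none. The restricted fit with the block gave 0 genes. Single ratios and shares have the same mean difference under a replicate block.

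The mRNAs called were 0, and 1 with library totals alone, with TMM over the restricted genes, and without fasted library 2 (range 0 to 1 over left-out libraries, 0 in the restricted fit). Their median log2 fold change of 0.13 became -0.08 with DESeq2, -0.05 with RLE factors, 0.59 with library totals, 0.61 with TMM over the restricted genes, 0.61 in the restricted fit and 0.61 there with the block. It ranged from -0.26 to 0.30 over left-out libraries. In the restricted fit it was 0.45, 0.59 and 0.80 without control library 1, 2 or 3 and 0.79, 0.34 and 0.55 without fasted library 1, 2 or 3, and these fits called 0 to 3 genes.

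Uncalled log2 fold changes that crossed 0 were, with DESeq2, mt-Nd1 -0.13, mt-Co2 -0.14, mt-Co3 -0.079, mt-Nd4l -0.021 and mt-Nd6 -0.11; with RLE factors, mt-Nd1 -0.11, mt-Co2 -0.12, mt-Co3 -0.052 and mt-Nd6 -0.084; with limma-voom, mt-Nd1 -0.020; with the replicate block, mt-Nd1 -0.023. mt-Atp8, mt-Atp6 and mt-Cytb were 0.19, 0.19 and 0.17 with library totals, 0.22, 0.21 and 0.21 with TMM over the restricted genes and the same to 2 decimals in the restricted fit. Over left-out libraries the ranges were -0.072 to 0.76 for mt-Rnr1, -0.22 to 0.65 for mt-Rnr2, -0.40 to 0.30 for mt-Nd1, -0.079 to 0.46 for mt-Nd2, -0.26 to 0.45 for mt-Co1, -0.14 to 0.22 for mt-Co2, -0.059 to 0.29 for mt-Co3, -0.14 to 0.47 for mt-Nd4l, -0.20 to 0.48 for mt-Nd4, -0.28 to 0.41 for mt-Nd5 and -0.28 to 0.20 for mt-Nd6. The mitochondrial share of counts differed by 0.20 to 0.89 percentage points. The cause of these changes was not tested.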
